A study of Caenorhabditis elegans with 24 samples.

Results

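The fbxa, fbxb and fbxc genes are the large families of F-box genes of the nematode Caenorhabditis elegans that are named by these letters. Members were the genes whose symbol began with fbxa-, fbxb- or fbxc- and whose mean reached at least 1 CPM, a read count scaled to a common library total, in at least 1 of the 8 groups. Of 310 such symbols in the table, 223 reached that level among 14561 genes tested in all: 133 of 174 fbxa genes, 62 of 98 fbxb genes and 28 of 38 fbxc genes. The other 87 stayed under it in every group. The highest group means of fbxb-68, fbxb-47 and fbxa-99 lay just inside at 1.01, 1.02 and 1.02 CPM, and those of fbxc-22, fbxb-78 and fbxa-35 lay just outside at 0.996, 0.978 and 0.978 CPM. Of the members, 71 reached 1 CPM in all 8 groups and 26 in a single group, which for 12 of them was N2 on control RNAi. A member that entered through 1 group alone was high there by construction.

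RNA was sequenced from whole worms of 2 strains, each fed bacteria for 4 kinds of RNA interference (RNAi), with 3 libraries per group. VC3201 is labelled as an atfs-1 mutant and N2 as wild type. In each strain the groups were RNAi against cco-1 and elt-2 together, against elt-2, against cco-1, and the control with an empty vector. All worms were hatched from hypochlorite-treated eggs, fed from the first larval stage for 2.5 days at 20 °C, and collected at the last larval stage or as young adults. The labels put the share of elt-2 RNAi bacteria at 50%, while the authors' deposited key sheet puts it at 25%, topped up with empty vector. Tissues were not separated, so fewer cells of a type and less RNA per cell cannot be told apart. The labels do not say whether the libraries of a group came from separate cultures, and p-values then measure the spread between these libraries, which may be technical.

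F-box proteins are the substrate receptors of SCF ubiquitin ligases, in which a cullin and a RING protein of the RBX type carry the catalytic part and a Skp1-related protein, called SKR in worms, joins the F-box protein to the cullin. Nematodes carry a very large and fast-changing set of F-box genes, many of them in tandem arrays, and the targets of most of these proteins are not known. Among the members with a known role are fbxa-75 and fbxa-158, whose proteins act with CUL-6 and SKR-3, SKR-4 and SKR-5 in a ligase of the intracellular pathogen response, a programme raised by microsporidia and the Orsay virus. The RNAi targets are cco-1, which encodes a subunit of cytochrome c oxidase, and elt-2, the GATA factor of the intestine, and atfs-1 encodes the factor that turns on the unfolded protein response of mitochondria.

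By the annotation of the WBcel235 assembly, 192 members were protein-coding and 31 were pseudogenes, of which 27 were fbxa genes. Chromosome II held 41 of the 62 fbxb members and 25 of the 28 fbxc members, while the 133 fbxa members were spread over chromosomes V (53), III (41), II (16), I (12), X (6) and IV (5). Nearly identical neighbours can share reads, and how the counting split such reads is not given in the sources used here, so values of neighbouring copies are uncertain. The strand setting of the counting is not given either, and for the 26 members that overlap another gene the reads of the genes cannot be told apart.

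The RNAi targets and atfs-1 were checked first. The cco-1 mRNA averaged 125 CPM with cco-1 RNAi against 346 CPM on control RNAi in VC3201, and 128 against 292 CPM in N2. With both RNAi it averaged 67.4 CPM in VC3201 and 72.9 CPM in N2, lower than with cco-1 RNAi alone. The elt-2 mRNA averaged 10.4 ± 4.93 CPM with elt-2 RNAi against 16.9 ± 0.673 CPM on control RNAi in VC3201, and 10.5 ± 0.958 against 17.3 ± 1.70 CPM in N2 (SD, n = 3 each), and 1 VC3201 library with elt-2 RNAi stood at 15.98 CPM, just under the control libraries. That library was kept, and without it 200 members passed the test for elt-2 RNAi in VC3201, against 202 with it. The atfs-1 mRNA averaged 20.5 to 27.3 CPM in the 4 VC3201 groups and 74.5 to 83.6 CPM in the 4 N2 groups. Reads were ranked back from the steps of the low values, and 1 CPM stood for 7 to 38 reads, depending on the library. For 186 members a read count, 0 included, could be recovered in every library. The reads behind 1 CPM followed the group in VC3201: 7 to 9 on control RNAi, 33 to 35 with elt-2 RNAi and 37 to 38 with both RNAi. The deposited values were quantile-normalised, and a value of 0.0220 CPM stands for 0 reads. The reads behind 1 CPM thus reflect the spread of values in a library as well as its depth. Levels between groups rest on this scaling, and its part in the members' changes was not tested.

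The families are given first as sums. The summed level of the 62 fbxb members averaged 8.42 CPM with both RNAi, 11.2 CPM with elt-2 RNAi and 14.9 CPM with cco-1 RNAi in VC3201, against 77.9 CPM on control RNAi. In N2 the same sums were 65.5, 105 and 66.8 CPM, against 119.1 CPM on control RNAi. Summed over the 28 fbxc members, the level averaged 64.7, 87.9 and 144 CPM with both, elt-2 and cco-1 RNAi in VC3201, against 230 CPM on control RNAi. In N2 the fbxc sums were 200, 233 and 215 CPM, against 250 CPM on control RNAi. The fbxa sum averaged 697, 739 and 590 CPM with both, elt-2 and cco-1 RNAi in VC3201, against 666 CPM on control RNAi. The N2 values of fbxa were 689, 680 and 555 CPM, against 533 CPM on control RNAi. These sums add quantile-normalised values that are not corrected for gene length, so they compare groups of worms, not families.

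**Figure D1:**
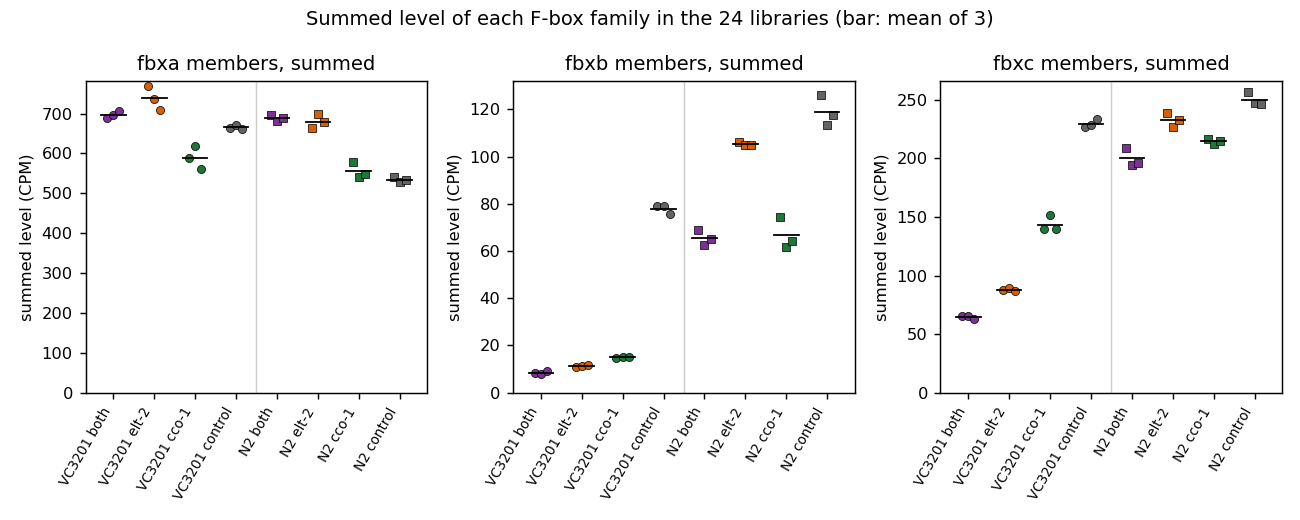
Summed CPM of the fbxa, fbxb and fbxc members in each library (points) with group means (bars), by RNAi (colours), circles for VC3201 and squares for N2. The fbxb sum of VC3201 averaged 8.42 to 14.9 CPM in the 3 RNAi groups and 77.9 CPM on control RNAi, while the fbxa sum stayed between 533 and 739 CPM in all groups.

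With elt-2 RNAi, the members that rose were nearly all fbxa genes. In VC3201, 60 members rose and 142 fell (limma across all genes, adjusted p under 0.05), where 36.4% of all genes tested rose and 49.4% fell. In N2, 48 rose and 38 fell, where 26.2% of all genes tested rose and 21.8% fell. Of the risers, 57 of 60 in VC3201 and 46 of 48 in N2 were fbxa genes. The fbxa genes are 133 of the 223 members. Out of 133, 57 and 46 are larger shares than the 36.4% and 26.2% of all genes tested. The libraries of the strains are separate, and 42 members rose in both, which is 70% of the VC3201 risers and 87.5% of the N2 risers. The overlap over all genes tested was not counted, so these shares have no background here. All 42 were fbxa genes: 20 lay on chromosome III, 12 on V, 8 on II and 2 on IV, and 2 were annotated as pseudogenes.

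The gene with the largest rise in both strains was fbxa-24 (WBGene00018803; chromosome II, 3816526 to 3818238, plus strand). In VC3201 it stood at 52.5, 51.9 and 51.3 CPM with elt-2 RNAi, against 0.545, 0.239 and 0.299 CPM on control RNAi. In N2 it stood at 24.7, 31.9 and 29.5 CPM with elt-2 RNAi, against 0.562, 0.800 and 0.400 CPM on control RNAi. All elt-2 RNAi libraries lay far above all controls, with no overlap in either strain. On the scale of log2(CPM + 1), which understates the change of low genes, fbxa-24 rose by 5.29 in VC3201 and by 4.23 in N2 (SE 0.13 each; limma adjusted p = 2.27e-24 and 1.93e-21).

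Next in VC3201 came fbxa-182 (chromosome II, 2409633 to 2412749, minus strand), a gene known to be induced in the intracellular pathogen response. It was measured at 106, 100.2 and 91.4 CPM with elt-2 RNAi against 2.84, 3.61 and 2.90 CPM on control RNAi in VC3201. In N2 it was measured at 59.9, 66.8 and 59.8 CPM against 7.92, 8.38 and 8.32 CPM. The groups were well apart in both strains, and the rises were 4.61 in VC3201 and 2.78 in N2 on the log2 scale (SE 0.0708 each). Its neighbour fbxa-4, which starts at 2414123 on the same strand, rose by 2.90 in VC3201 and 1.42 in N2, while fbxc-20, which starts at 2419136 on the other strand, is one of the 2 fbxc members that rose in VC3201, by 0.66.

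Several other fbxa genes were low on control RNAi, with 0.0220 to 1.52 CPM per library in the 3 given here. On chromosome III, fbxa-30 was at 8.20, 8.15 and 7.40 CPM with elt-2 RNAi against 0.343, 0.130 and 0.0220 CPM on control RNAi in VC3201, and at 7.60, 7.11 and 7.79 CPM against 0.151, 0.145 and 0.268 CPM in N2. Its rises of 2.94 in VC3201 and 2.84 in N2 were close to each other, and their difference between strains was not called (0.10, SE 0.158, limma adjusted p = 0.563). Also on chromosome III, fbxa-138 was at 14.2, 13.7 and 11.4 CPM against 0.242, 0.725 and 0.430 CPM in VC3201, and at 7.56, 9.19 and 7.41 CPM against 0.562, 0.419 and 0.400 CPM in N2. On chromosome V, fbxa-143 was at 29.8, 30.9 and 27.6 CPM against 1.22, 1.30 and 1.30 CPM in VC3201, and at 8.90, 10.8 and 9.18 CPM against 1.52, 1.30 and 1.15 CPM in N2. In none of these genes did an elt-2 RNAi library overlap a control, and for fbxa-143 the rise was larger in VC3201 by 1.55 (SE 0.137, limma adjusted p = 6.95e-11).

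**Figure D2:**
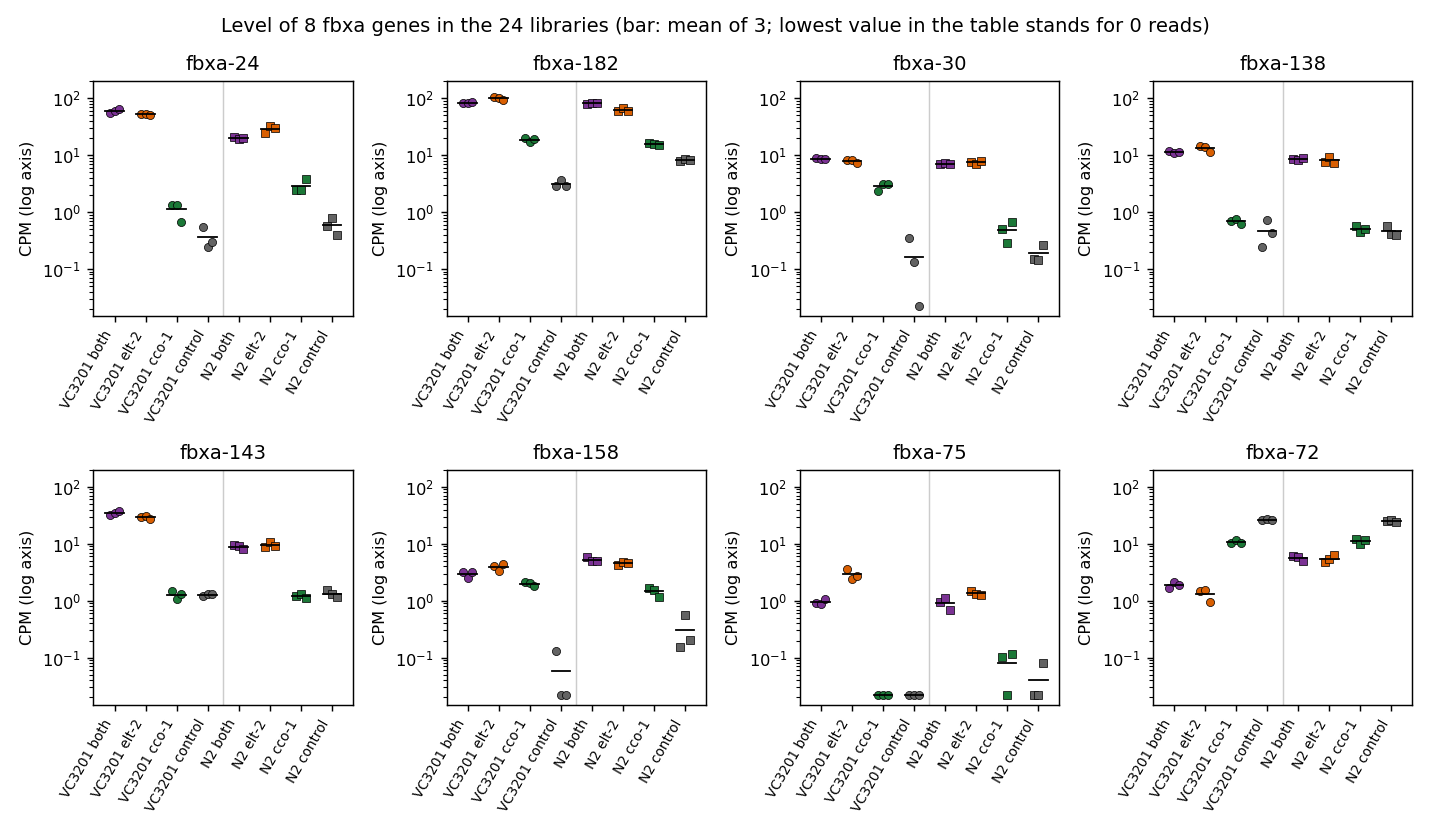
CPM of named fbxa genes in each library (points, log axis) with group means (bars), by RNAi (colours), circles for VC3201 and squares for N2. For fbxa-24, fbxa-182, fbxa-30 and fbxa-143 the elt-2 RNAi libraries of both strains lie above all control libraries.

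The members of the CUL-6 ligase rose with their partners. In VC3201, fbxa-75 (chromosome III, 1303714 to 1305461) had 134, 90 and 98 ranked-back reads with elt-2 RNAi and 0 reads in each control library. In N2 it had 28, 31 and 27 reads with elt-2 RNAi and 0, 0 and 1 on control RNAi. These reads are not scaled between libraries: in VC3201, 1 CPM stood for 33 to 35 reads with elt-2 RNAi and 7 to 9 on control RNAi. The levels of fbxa-75 with elt-2 RNAi were 3.59, 2.43 and 2.73 CPM in VC3201 and 1.47, 1.32 and 1.26 CPM in N2. Its log2 differences, 1.93 in VC3201 and 1.17 in N2 (limma adjusted p = 1.52e-15 and 4.32e-10), depend on the pseudocount because the controls were at or near 0. The second receptor, fbxa-158 (chromosome II, 1619814 to 1621280), was at 4.13, 3.32 and 4.48 CPM with elt-2 RNAi against 0.132, 0.0220 and 0.0220 CPM on control RNAi in VC3201. In N2 it was at 4.23, 4.82 and 4.65 CPM against 0.151, 0.560 and 0.200 CPM. Both genes were thus near 0 in every control library, and fbxa-158 rose by 2.23 in VC3201 and 2.11 in N2.

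Among the 24 SCF partner genes tested, those of the same ligase moved with these receptors. In VC3201 the cullin gene cul-6 averaged 33.5 ± 2.34 CPM with elt-2 RNAi and 4.37 ± 0.266 CPM on control RNAi (SD, n = 3 each), and in N2 18.4 ± 1.66 and 4.59 ± 0.559 CPM. The Skp1-related skr-3 averaged 172 against 15.9 CPM in VC3201 and 86.1 against 17.4 CPM in N2, and skr-4 averaged 116 against 9.77 CPM in VC3201 and 57.7 against 14.6 CPM in N2. Another, skr-5, rose by 1.38 and 0.69 on the log2 scale in VC3201 and N2. Other Skp1-related genes went the opposite way in VC3201: skr-7 averaged 2.08 CPM with elt-2 RNAi and 20.9 CPM on control RNAi, and skr-8, skr-9, skr-10, skr-12, skr-13, skr-14 and skr-15 fell by 1.79 to 2.57 on the log2 scale. None of these 8 was called in N2 with elt-2 RNAi, and skr-7 to skr-10 are close copies whose reads could be split. In all, 6 of the 24 partners rose and 17 fell in VC3201 (median -0.77, against -0.18 over all genes), and 6 rose and 4 fell in N2. Of 12 tested genes of the intracellular pathogen response outside the families, 4 of which are also among the partners, 11 rose and 1 fell in each strain, led by eol-1 at 126 against 0.589 CPM in VC3201 and 59.0 against 1.17 CPM in N2.

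The fbxa genes that fell with elt-2 RNAi were led by fbxa-72 (chromosome V, 674886 to 676753). It stood at 1.45, 1.52 and 0.951 CPM with elt-2 RNAi against 25.8, 27.1 and 25.9 CPM on control RNAi in VC3201. In N2 it stood at 4.81, 5.30 and 6.30 CPM against 25.6, 26.1 and 24.2 CPM. The control levels of the strains were alike, the RNAi libraries lay below every control, and the log2 differences were -3.57 and -2.03 in VC3201 and N2 (SE 0.106 each). The pseudogene fbxa-180 was at 0.0220, 0.0220 and 0.0496 CPM against 4.40, 4.20 and 3.92 CPM in VC3201, and at 0.239, 0.0496 and 0.211 CPM against 1.88, 1.61 and 2.52 CPM in N2. Another pseudogene, fbxa-187, had no reads in any of the 6 elt-2 RNAi libraries, against 1.98, 1.77 and 0.808 CPM on control RNAi in VC3201 and 2.45, 1.16 and 0.852 CPM in N2. Of 133 fbxa members, 59 fell in VC3201 and 21 in N2, which is 44.4% and 15.8%, below the 49.4% and 21.8% of all genes tested.

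In fbxb and fbxc, elt-2 RNAi lowered more members, and by more, in VC3201 than in N2. In VC3201, 59 of 62 fbxb members and 24 of 28 fbxc members fell, 95.2% and 85.7%, where 49.4% of all genes tested fell, with medians of -0.89 in both families. In N2, 12 fbxb and 5 fbxc members fell, 19.4% and 17.9%, below the 21.8% of all genes tested, with medians of -0.10 and -0.12. Mean levels under 0.1 CPM were reached by 42 of the 62 fbxb members with elt-2 RNAi in VC3201, against 0 of 62 on control RNAi, and by 0 in N2 in any group. These counts do not rest on like numbers of reads, since in VC3201 1 CPM stood for 33 to 35 reads with elt-2 RNAi and 7 to 9 on control RNAi. Of all 223 members, 12 passed the filter on low values through the N2 control group alone and 6 through the VC3201 control group alone. Of the 22 fbxb members that averaged at least 1 CPM over all libraries, 21 fell with elt-2 RNAi in VC3201 and 5 in N2, and of 20 such fbxc members 19 fell in VC3201 and 3 in N2.

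The difference between strains was tested directly, as the elt-2 RNAi effect in VC3201 minus that in N2. It was higher in VC3201 for 36 members and lower for 121, where 30.7% of all genes tested were higher and 42.1% lower; the lower ones included 50 of 62 fbxb and 21 of 28 fbxc members. The largest such difference was that of fbxc-32 (chromosome II, 946485 to 948191). It was at 3.50, 3.37 and 3.73 CPM with elt-2 RNAi against 26.02, 24.8 and 23.8 CPM on control RNAi in VC3201, and at 20.5, 19.7 and 22.3 CPM against 25.2, 23.9 and 21.6 CPM in N2. The VC3201 groups were far apart while those of N2 overlapped, and the difference of the effects was -2.35 (SE 0.119, limma adjusted p = 6.68e-16). The X-linked fbxa-170 showed the same kind of pattern at 2.57, 2.04 and 2.32 CPM against 14.1, 13.7 and 14.4 CPM in VC3201, and 14.8, 15.5 and 13.8 CPM against 15.9, 14.6 and 14.9 CPM in N2. In fbxb-7 (chromosome V), levels with elt-2 RNAi were 0.268, 0.437 and 0.597 CPM against 4.66, 5.32 and 4.58 CPM in VC3201, and 8.59, 7.22 and 7.88 CPM against 9.64, 10.6 and 9.78 CPM in N2.

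Exceptions were few. The one fbxb member that rose with elt-2 RNAi in VC3201 was the pseudogene fbxb-36, which overlaps another gene. It was at 3.77, 4.51 and 5.17 CPM with elt-2 RNAi against 0.343, 0.542 and 0.808 CPM on control RNAi in VC3201, and at 1.70, 1.42 and 1.57 CPM against 1.61, 1.30 and 1.37 CPM in N2. The groups were apart in VC3201 and overlapped in N2. The 3 members that rose in N2 and fell in VC3201 were fbxa-153, fbxb-108 and fbxc-33. The last was at 1.88, 2.098 and 2.06 CPM against 3.10, 3.79 and 5.36 CPM in VC3201, and at 3.09, 2.09 and 2.51 CPM against 1.61, 1.53 and 2.09 CPM in N2. In VC3201 its unscaled ranked-back reads were 71, 77 and 73 against 33, 42 and 50. Those of fbxa-153 were 87, 53 and 74 against 69, 38 and 41, and those of fbxb-108 were 1, 3 and 1 against 8, 8 and 8. The falls of fbxc-33 and fbxa-153 thus rest on the scaling of the libraries.

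Markers of tissues in the whole worms moved in the same comparison. In VC3201 with elt-2 RNAi, 13 of 14 germline and oocyte genes fell and 1 rose, their sum spanning 7217 to 7244 CPM against 10490 to 10756 CPM on control RNAi. Of 12 spermatogenesis genes, 11 rose, with sums of 1192 to 1253 CPM against 233.9 to 278.7 CPM, and of 13 cuticle genes 12 rose and 1 fell. In N2, 5 germline genes rose and 2 fell, and 10 spermatogenesis genes rose, with sums of 220.2 to 236.8 CPM against 118.8 to 152.2 CPM. Of the cuticle genes, 1 rose and 3 fell in N2, with a log2 median of -0.12, against 3.58 in VC3201. Of 11 intestine genes, 5 rose and 6 fell in VC3201, with sums of 2584 to 2727 CPM against 1485 to 1684 CPM, and 3 rose and 7 fell in N2, with sums of 1587 to 1688 CPM against 1636 to 1677 CPM. Of 8 neuron genes, 5 rose and 1 fell in VC3201 and 5 rose in N2, and of 7 muscle genes 4 rose and 3 fell in VC3201, and 1 rose and 4 fell in N2. No gene of these lists averaged 0 in any group, and the part of these tissues in the members' values was not tested. The worms were last-stage larvae or young adults, and the part of stage was not tested either.

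**Figure D3:**
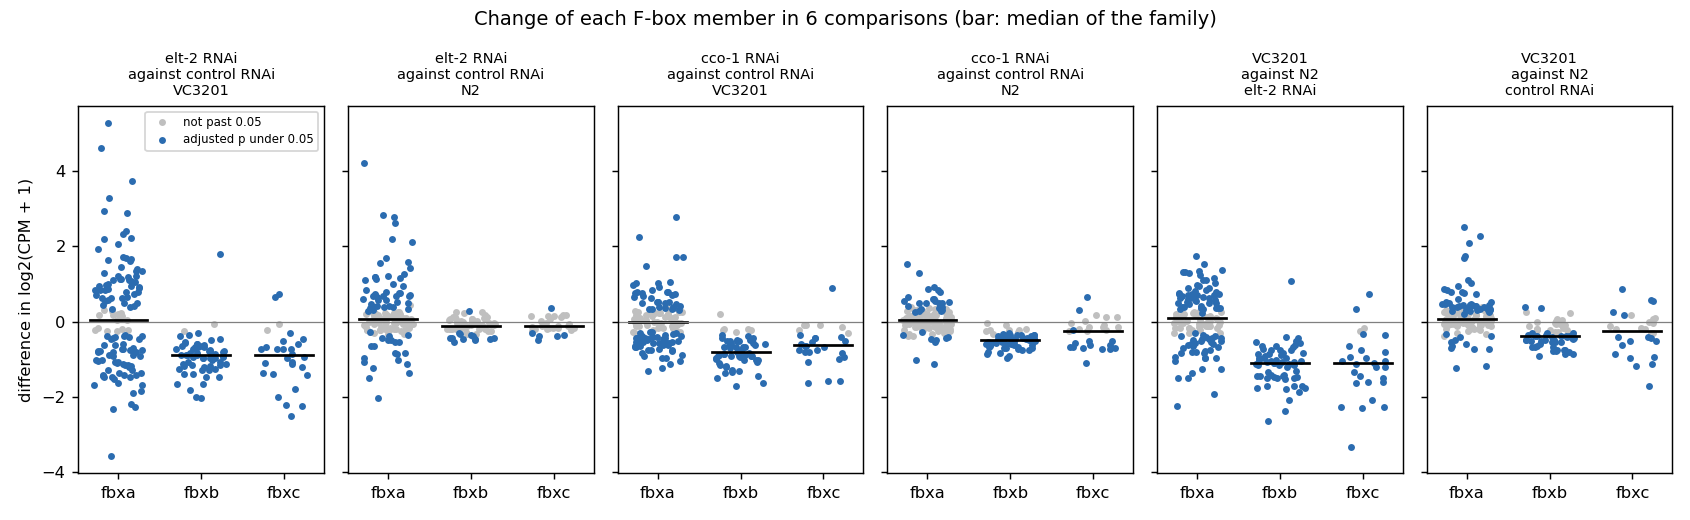
Difference in log2(CPM + 1) of every member by family in 6 comparisons (points, blue where the adjusted p was under 0.05), with medians (bars). With elt-2 RNAi the fbxb and fbxc medians lie at -0.89 in VC3201 and at -0.10 and -0.12 in N2, while the fbxa points reach above 4 in both strains.

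RNAi against cco-1 lowered fbxb genes in both strains. In VC3201, 38 members rose and 125 fell, where 26.9% of all genes tested rose and 37.1% fell. In N2, 26 rose and 75 fell, where 17.5% of all genes tested rose and 16.4% fell. Of the 62 fbxb members, 56 fell in VC3201 and 53 in N2, and none rose, with medians of -0.80 and -0.48. Of the 28 fbxc members, 21 fell in VC3201 and 13 in N2. A total of 66 members fell in both strains, 52.8% of those that fell in VC3201 and 88% of those that fell in N2. They were 48 fbxb, 12 fbxc and 6 fbxa genes. Here too the overlap over all genes tested was not counted. With low values taken from ranked-back reads, 33 rose and 60 fell in N2, and the fbxa split there was 31 to 6 in place of 24 to 9. The fbxb members that fell in N2 numbered 41 in place of 53 with ranked-back reads, and 41 with limma-voom. Many were low: in N2, 55 fbxb members averaged 1 CPM or more on control RNAi and 22 with cco-1 RNAi. Members that passed the filter on low values through a control group were high there by construction, which tilts the fbxb count towards falls. Of members averaging at least 1 CPM over all libraries, 25 rose and 33 fell in N2. The shares of all genes under that filter are not given here.

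Among the fbxb genes, the largest fall in N2 was that of fbxb-37 (chromosome II), at 0.0220, 0.0844 and 0.211 CPM with cco-1 RNAi against 1.04, 1.59 and 1.30 CPM on control RNAi in VC3201, and at 0.813, 0.547 and 0.665 CPM against 2.05, 1.94 and 2.87 CPM in N2. The groups did not overlap in either strain, with log2 differences of -1.06 and -0.96. In fbxb-41, also on chromosome II, levels were 0.426, 0.509 and 0.446 CPM against 3.96, 2.70 and 2.45 CPM in VC3201 and 3.96, 3.04 and 2.72 CPM against 5.28, 5.65 and 5.04 CPM in N2. This gene had no reads at all in the 3 VC3201 libraries with both RNAi. The fbxc gene with the largest fall in N2 was fbxc-51 (chromosome II, 868814 to 871699), at 1.60, 2.60 and 2.17 CPM with cco-1 RNAi against 5.59, 5.14 and 5.87 CPM on control RNAi in VC3201, and at 8.20, 8.66 and 10.5 CPM against 20.7, 20.6 and 19.9 CPM in N2. Its log2 differences of -1.08 in VC3201 and -1.09 in N2 were nearly equal, and their difference was not called (0.01, SE 0.148, limma adjusted p = 0.95).

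**Figure D4:**
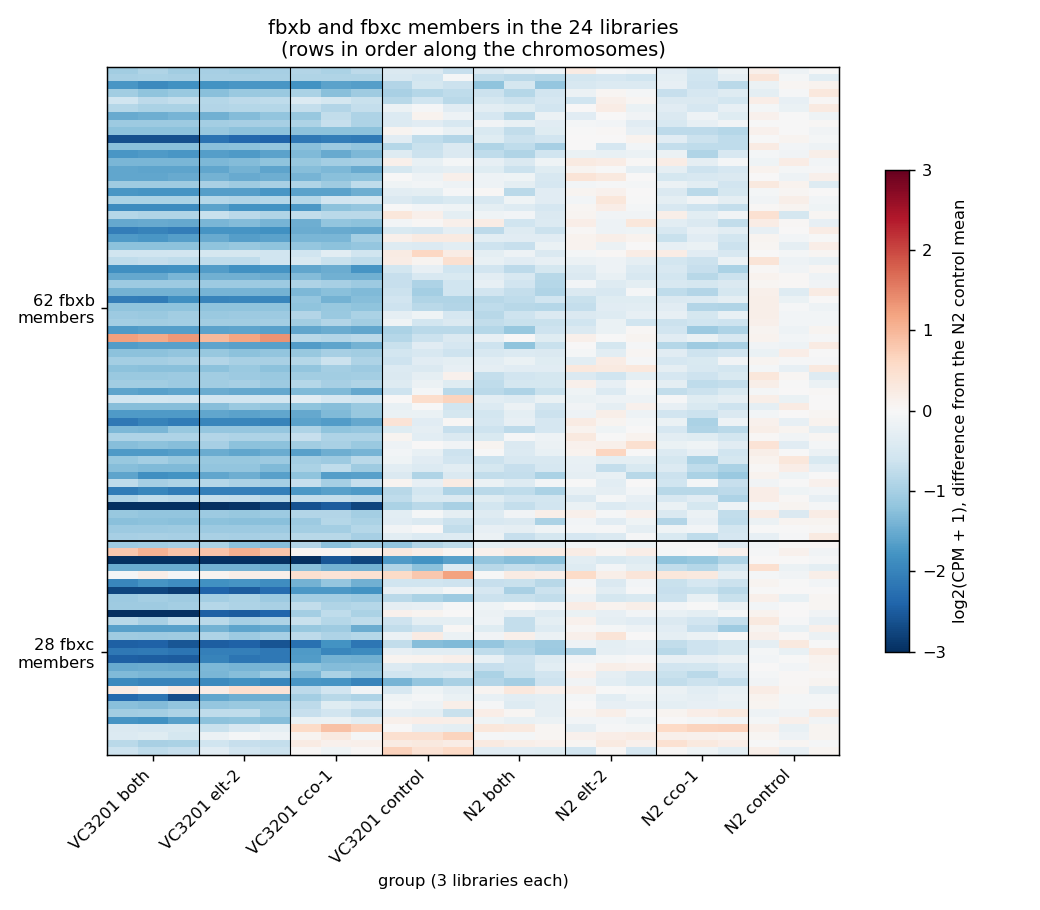
Log2(CPM + 1) of the fbxb and fbxc members (rows) in the 24 libraries (columns), with colour as the difference from the mean of the N2 control libraries. The VC3201 libraries with RNAi against elt-2, cco-1 or both are low across nearly all rows, and the N2 libraries with cco-1 RNAi less so.

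The members that rose with cco-1 RNAi were again nearly all fbxa genes, 37 of 38 in VC3201 and 24 of 26 in N2. Out of 133 fbxa members, 37 and 24 are shares near the 26.9% and 17.5% of all genes tested that rose. For the risers, too, the overlap over all genes tested was not counted. Of the members that rose, 17 did so in both strains: 16 fbxa genes and fbxc-23. A tandem block on chromosome II (1607869 to 1621280) with fbxa-162, fbxa-163, fbxa-165, fbxa-166 and fbxa-158 held several of them. With cco-1 RNAi, 4 of these 5 rose in each strain (median 1.49 in VC3201 and 0.87 in N2), and with elt-2 RNAi all 5 rose in each (median 1.05 and 0.73). In VC3201, fbxa-163 was at 5.58, 7.63 and 5.64 CPM with cco-1 RNAi against 0.132, 0.0220 and 0.0220 CPM on control RNAi. In N2 it was at 1.65, 2.26 and 2.58 CPM against 0.654, 0.800 and 0.701 CPM. The RNAi libraries lay above the controls in both strains, and the effect was larger in VC3201 by 1.90 (SE 0.185, limma adjusted p = 2.8e-09).

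Its neighbour fbxa-166 was at 2.47, 2.98 and 2.32 CPM with cco-1 RNAi against 0.151, 0.336 and 0.200 CPM on control RNAi in N2, the largest rise of any member there (1.55, SE 0.143, limma adjusted p = 8.84e-10). In VC3201 it was at 0.788, 1.28 and 1.31 CPM against 0.545, 0.0220 and 0.0220 CPM. The genes of this block are neighbours on 1 strand, and their reads could be split among copies. Outside the block, fbxa-182 rose to 20.0, 16.99 and 18.9 CPM with cco-1 RNAi in VC3201, against 2.84, 3.61 and 2.90 CPM on control RNAi, and to 16.1, 15.7 and 15.1 CPM in N2, against 7.92, 8.38 and 8.32 CPM. The control libraries of VC3201 lay below those of N2, and the cco-1 RNAi effect was larger in VC3201 by 1.40. Counted over both RNAi kinds and both strains, 14 members rose in all 4 comparisons, all fbxa genes. Among them were fbxa-24, fbxa-30, fbxa-74, fbxa-158, fbxa-163, fbxa-166 and fbxa-182. Within a strain these comparisons share the control libraries, and the same count over all genes tested was not made.

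The cco-1 RNAi effect differed between strains for 76 members, higher in VC3201 for 18 and lower for 58, where 16.8% of all genes tested were higher and 23.2% lower. The lower ones were 29 fbxa, 17 fbxb and 12 fbxc genes. The 3 members called in opposite directions in the strains were fbxa-216, fbxa-217 and fbxa-6. In fbxa-216 the levels were 3.89, 4.73 and 3.48 CPM with cco-1 RNAi against 6.29, 6.31 and 6.41 CPM on control RNAi in VC3201, and 5.64, 6.91 and 6.64 CPM against 5.33, 4.81 and 4.32 CPM in N2. Of the SCF partners, cul-6 averaged 8.47 CPM with cco-1 RNAi against 4.37 CPM in VC3201, a rise of 0.82, and 4.42 against 4.59 CPM in N2, where it was not called. In VC3201 6 partners rose and 15 fell with cco-1 RNAi, and in N2 2 rose and 14 fell. Markers moved here too. Of 14 germline genes, 1 rose and 10 fell in VC3201, and 2 rose and 1 fell in N2. Of 12 spermatogenesis genes, 9 rose in VC3201 and 10 in N2. Of 13 cuticle genes, 10 rose and 1 fell in VC3201, and 3 rose and 2 fell in N2. Of 11 intestine genes, 7 rose and 2 fell in VC3201, and 5 rose and 3 fell in N2. Of 7 muscle genes, 6 rose in VC3201, and 3 rose and 1 fell in N2. Of 8 neuron genes, 6 rose and 1 fell in VC3201, and 3 rose and 1 fell in N2. Their part was not tested.

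RNAi against both genes, set against cco-1 RNAi, again raised fbxa-24 and fbxa-143 in both strains. Against cco-1 RNAi, it raised 49 members and lowered 95 in VC3201, where 36.5% of all genes tested rose and 44.6% fell. In N2 it raised 35 and lowered 26, where 17.6% of all genes tested rose and 16.5% fell. In the VC3201 comparison 12 of 14 germline genes fell and 1 rose, 11 of 12 spermatogenesis genes rose, 12 of 13 cuticle genes rose and 1 fell, and 3 of 11 intestine genes rose and 7 fell. In N2, 2 germline genes fell and 2 rose, 7 spermatogenesis genes and 1 cuticle gene rose, and 2 intestine genes rose and 7 fell. The part of these tissues in the members' values was not tested. The cco-1 mRNA was lower too, with log2 differences of -0.88 in VC3201 and -0.80 in N2, so the cco-1 knockdown was not held fixed. For fbxa-24 the levels with both RNAi were 55.7, 59.1 and 63.5 CPM against 1.34, 1.33 and 0.666 CPM with cco-1 RNAi in VC3201, and 20.6, 19.4 and 19.9 CPM against 2.47, 2.42 and 3.78 CPM in N2. No library with both RNAi overlapped the cco-1 RNAi group. For fbxa-143 they were 32.3, 34.8 and 37.1 CPM against 1.49, 1.05 and 1.31 CPM in VC3201, and 9.36, 9.25 and 8.26 CPM against 1.20, 1.33 and 1.10 CPM in N2. In contrast, fbxa-163 fell in VC3201 to 0.808, 0.947 and 0.663 CPM with both RNAi, against 5.58, 7.63 and 5.64 CPM with cco-1 RNAi, and fbxc-23 fell to 0.881, 0.808 and 0.828 CPM, against 2.77, 3.62 and 3.06 CPM. In N2, fbxa-163 was at 1.95, 2.06 and 1.25 CPM against 1.65, 2.26 and 2.58 CPM, which overlapped.

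Whether the cco-1 RNAi effect in N2 was changed by elt-2 RNAi was tested as the effect with elt-2 RNAi minus that without it. It was higher for 5 members and lower for 7, where 7.09% of all genes tested were higher and 5.95% lower. The largest differences were those of fbxa-24 (-1.78, SE 0.185, limma adjusted p = 2.74e-08), fbxa-166 (-1.26) and fbxa-158 (-0.77) on the lower side and fbxa-72 (1.15), fbxa-187 (1.03) and fbxa-190 (0.78) on the higher side. In fbxa-72 the levels were 6.08, 5.78 and 5.03 CPM with both RNAi against 4.81, 5.30 and 6.30 CPM with elt-2 RNAi, and 12.1, 9.73 and 11.8 CPM with cco-1 RNAi against 25.6, 26.1 and 24.2 CPM on control RNAi. The first pair overlapped and the second did not. With a pseudocount of 5 the counts were 7 higher and 4 lower, a split that runs the other way, and fbxa-158 was not called (limma adjusted p = 0.0923). With limma-voom fbxa-187 was not called (limma-voom adjusted p = 0.0697) and 3 members were higher. Without control replicate 3 the higher members numbered 9, and without cco-1 RNAi replicate 1 they numbered 8. The cco-1 mRNA itself had a difference of -0.49 here (SE 0.108, limma adjusted p = 0.00192). The cco-1 knockdown was thus stronger with elt-2 RNAi, and its part in the members' values was not tested.

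On control RNAi the strains differed in 112 members. Of these, 50 were higher in VC3201 and 62 lower, where 26.7% of all genes tested were higher and 22.6% lower. The higher ones were 43 fbxa, 2 fbxb and 5 fbxc genes, and the lower ones were 12 fbxa, 38 fbxb and 12 fbxc genes. On control RNAi, 55 of the 62 fbxb members averaged 1 CPM or more in N2 and 33 did in VC3201. Those that entered the set through N2 were high there by construction, which tilts the fbxb count towards lower in VC3201. Of members averaging at least 1 CPM over all libraries, 43 were higher and 31 lower. The shares of all genes under that filter are not given here. Pseudogenes were among the 112 members: of 31, 15 were higher in VC3201 and 4 lower. Beside this, 12 of 13 cuticle genes were lower in VC3201 and none higher, 7 of 14 germline genes were higher and 2 lower, and 9 of 12 spermatogenesis genes were higher and 1 lower, and their part was not tested.

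The largest rises of the strain comparison stood together. A block of 5 fbxa genes on the minus strand of chromosome V (17637982 to 17659385), with the pseudogenes fbxa-191, fbxa-193 and fbxa-129 and the protein-coding genes fbxa-192 and fbxa-108, was higher in VC3201 throughout, by 1.69 to 2.52 on the log2 scale (median 2.08). In fbxa-192 the control libraries were at 12.9, 13.9 and 13.5 CPM in VC3201 against 1.88, 1.53 and 1.15 CPM in N2. In fbxa-193 they were at 11.3, 10.8 and 11.1 CPM in VC3201 against 1.08, 1.85 and 1.60 CPM in N2. In fbxa-191, ranked-back reads numbered 41, 51 and 31 in VC3201 against 2, 2 and 3 in N2. In fbxa-108 they were at 10.1, 12.3 and 10.3 CPM in VC3201 against 2.52, 2.59 and 2.45 CPM in N2. No library of one strain overlapped the other in these genes.

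In VC3201 the block fell with RNAi, all 5 genes with cco-1 RNAi and 4 with elt-2 RNAi. For fbxa-192 the levels were 4.13, 4.49 and 4.51 CPM with elt-2 RNAi against 12.9, 13.9 and 13.5 CPM on control RNAi. In N2 the gene was at 1.21, 1.03 and 1.26 CPM with elt-2 RNAi, overlapping its control libraries, and the elt-2 RNAi effects differed by -1.21 (SE 0.16, limma adjusted p = 1.28e-07). The next block along the chromosome (18123939 to 18137714), with fbxa-107, fbxa-210, fbxa-211, fbxa-212 and fbxc-46, had 4 of 5 genes higher in VC3201 with a median of 0.57. Reads of such neighbours could be split among copies.

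**Figure D5:**
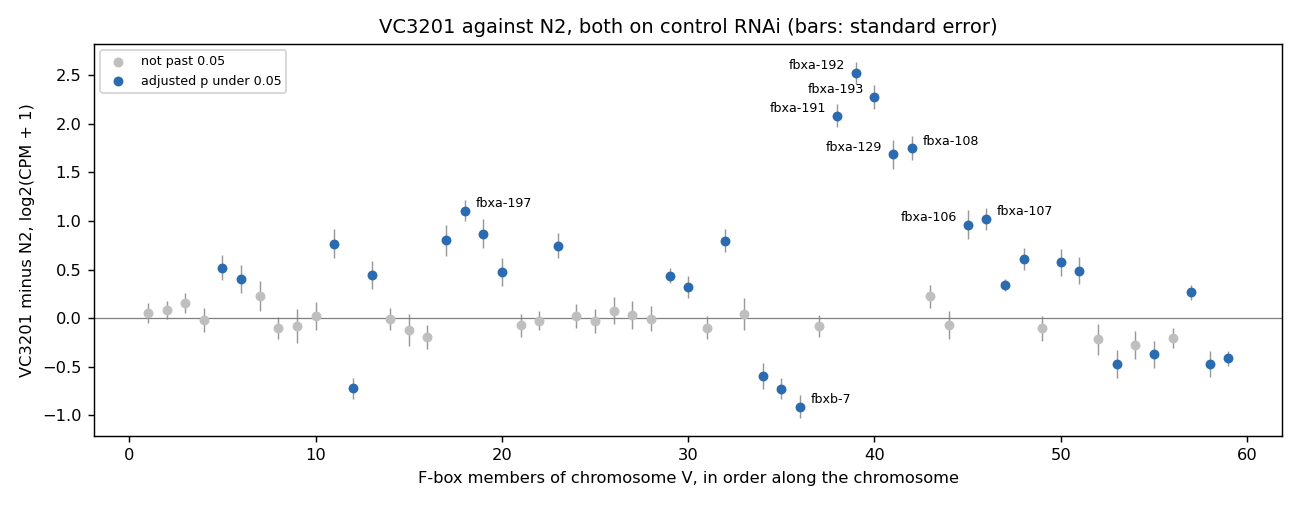
Difference between VC3201 and N2 on control RNAi, as log2(CPM + 1), of the members on chromosome V in their order along the chromosome; blue points passed the test, and bars are standard errors. The block of 5 fbxa genes lies between 1.69 and 2.52, above the other members of the chromosome.

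Of the genes lower in VC3201 on control RNAi, fbxc-51 was at 5.59, 5.14 and 5.87 CPM in VC3201 against 20.7, 20.6 and 19.9 CPM in N2, a difference of -1.71 (SE 0.105, limma adjusted p = 1.3e-13). The fbxa gene fbxa-125 was at 0.0220, 0.542 and 0.152 CPM in VC3201 against 2.37, 1.30 and 2.01 CPM in N2. With elt-2 RNAi, the same gene was at 2.98, 2.74 and 2.78 CPM in VC3201 against 2.03, 1.13 and 1.47 CPM in N2, so the order of the strains was the other way round. With elt-2 RNAi in both strains, 56 members were higher in VC3201 and 123 lower, where 33.1% of all genes tested were higher and 44.8% lower. The lower ones were 61 of 62 fbxb, 24 of 28 fbxc and 38 of 133 fbxa members, with medians of -1.09 in fbxb and -1.10 in fbxc. With elt-2 RNAi, 1 of the 62 fbxb members averaged 1 CPM or more in VC3201 and 45 did in N2. Members that entered the set through N2 groups were high there by construction, which tilts the fbxb count towards lower in VC3201.

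Blocks of 4 or more members, each within 20000 bases of the next, numbered 13 and held 94 members. Their counts stand against all genes tested, of which 36.4% rose and 49.4% fell with elt-2 RNAi in VC3201, 26.2% and 21.8% did in N2, 37.1% fell with cco-1 RNAi in VC3201 and 16.4% in N2. A block of 15 members on chromosome II (904425 to 1001451), 13 of them fbxc genes, had 14 genes lowered and none raised with cco-1 RNAi in VC3201, 14 lowered and none raised with elt-2 RNAi in VC3201, and 10 lowered and none raised with cco-1 RNAi in N2. A block of 8 fbxb genes on the same chromosome (1536231 to 1571132) had all 8 lowered with elt-2 RNAi in VC3201 and none called in N2. A block of 19 fbxa genes on chromosome III (1239048 to 1344744), which holds fbxa-30 and fbxa-75, was mixed, with 12 raised and 5 lowered with elt-2 RNAi in VC3201 and 9 raised and 4 lowered in N2. Neighbours can share reads, so they are not independent measurements.

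Proteins with a BTB domain can serve as substrate adapters of the cullin CUL-3 in worms. The 78 tested genes of the MATH and BTB families (bath, math and btb), likewise a large set, gave a comparison. With elt-2 RNAi, 13 rose and 57 fell in VC3201 (median -0.84), and 20 rose and 18 fell in N2, where 36.4% of all genes tested rose and 49.4% fell in VC3201, and 26.2% rose and 21.8% fell in N2. With cco-1 RNAi, 11 rose and 48 fell in VC3201, and 12 rose and 12 fell in N2, where 26.9% of all genes tested rose and 37.1% fell in VC3201, and 17.5% rose and 16.4% fell in N2. On control RNAi, 33 were higher in VC3201 and 8 lower, where 26.7% of all genes tested were higher and 22.6% lower.

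In the authors' deposited table of genes raised by cco-1 RNAi, 22 are members, 1.22% of that list, 20 of them fbxa and 2 fbxc genes. Of the 517 genes that the authors' deposited table lists as depending on ELT-2, 5 are members (fbxa-209, fbxa-216, fbxa-217, fbxc-23 and fbxc-47). Of the 719 that the authors' deposited table lists as depending on ATFS-1, 10 are members, 9 fbxa genes and fbxc-47. Members make up 0.967% of the ELT-2 list and 1.39% of the ATFS-1 list. Among all genes tested, 223 of 14561 are members, a larger share than in any of these lists. In fbxc-47 (chromosome IV), which overlaps another gene, levels with cco-1 RNAi were 25.8, 23.8 and 24.3 CPM against 26.1, 26.9 and 25.5 CPM on control RNAi in VC3201, and 30.1, 26.9 and 25.0 CPM against 21.5, 22.4 and 21.1 CPM in N2. The VC3201 groups overlapped, and those of N2 did not.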

How the data were processed

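Whole-worm polyA RNA was sequenced on a BGISEQ-500, per the labels. The authors deposited CPM values per gene, made by quantile normalisation of the 24 libraries; the columns share 1 set of values, and their lowest, 0.0220 CPM, is the value of 0 reads. Per the submitters' processing notes the tools were STAR 2.73a and edgeR 3.24.3 on WBcel235, also called ce11; positions are from Ensembl annotation of that assembly; which counter and which annotation were used is not given in the sources used here. From the deposited CPM of 16927 genes, the 14561 whose mean reached 1 CPM in some group were tested on log2(CPM + 1) with limma 3.58.1 in R 4.3.3, in 1 model of 8 group means over all 24 libraries, with Benjamini-Hochberg adjustment over all 14561 genes and a threshold of 0.05. Ranked-back reads come from the steps of the low values and cover counting only. Lists are described by counts, with no test. Members, lists and the rule for named genes (in each comparison up to 8 raised and 8 lowered members with the largest log2 difference among those called, with known genes of the intracellular pathogen response) were chosen with earlier results of these data known; fbxc-20, fbxc-47, the members called in opposite directions in the strains and the blocks were chosen after their values were seen. The models were tested on simulated data. Alternatives were other pseudocounts, limma-voom, ranked-back low values, a stricter filter, a 2-fold minimum, only the groups compared, a replicate block and leaving out each library. Replicates of a group differed by more than sampling noise, with a chi-square per gene of 1.25 to 1.71 over 24 pairs.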

Additional observations from a re-analysis of the deposited data

Results flagged for a closer look

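The effect of elt-2 RNAi differed between VC3201 and N2 (tested difference, VC3201 minus N2, on log2(CPM + 1)). Among the named members with the largest differences, the effect was higher in VC3201 for fbxa-125 by 1.83, fbxa-182 by 1.83, fbxa-150 by 1.74 and fbxb-36 by 1.73. It was lower in VC3201 for fbxc-32 (-2.35), fbxc-42 (-2.18), fbxa-170 (-2.15) and fbxc-28 (-2.12).

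The effect of cco-1 RNAi also differed between the strains. It was higher in VC3201 for fbxa-163 by 1.90, fbxa-30 by 1.40, fbxa-182 by 1.40 and fbxa-3 by 1.14. It was lower in VC3201 for fbxb-7 (-1.42), fbxc-42 (-1.40), fbxb-103 (-1.20) and fbxb-43 (-0.98).

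Within N2 the effect of cco-1 RNAi differed between worms with and without elt-2 RNAi. The difference was 1.15 in fbxa-72, 1.03 in fbxa-187 and 0.78 in fbxa-190, and -1.78 in fbxa-24, -1.26 in fbxa-166 and -0.77 in fbxa-158.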

How the results depend on the processing

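Low members limit the results, since 1 CPM stood for 7 to 38 reads. In the order cco-1 RNAi, elt-2 RNAi and both against cco-1 RNAi in N2, the same 3 in VC3201, VC3201 against N2 on control and on elt-2 RNAi, cco-1 by elt-2 RNAi in N2, elt-2 RNAi by strain and cco-1 RNAi by strain, the members called numbered 5, 25, 20, 32, 99, 39, 12, 77, 4, 60 and 8 with a minimum of 2-fold. Among genes averaging at least 1 CPM over all libraries, 58 members were called for cco-1 RNAi in N2, 132 for elt-2 RNAi in VC3201, 74 for the strains on control RNAi and 115 on elt-2 RNAi. Under both settings fewer genes can be called by construction. With a replicate block the counts, in the first order, were 101, 85, 61, 163, 202, 140, 112, 179, 12, 156 and 76. The numbers were not taken as pairs: correlations between same-numbered libraries averaged 0.0184 (84 pairs, -0.104 to 0.15), against -0.0092 between different numbers (168 pairs), although 16 of 24 libraries were closest to their own number, a hint from the data and not the design. Without the VC3201 elt-2 RNAi library whose elt-2 level stood just under the controls, 200 members were called in VC3201. No named result changed direction in the alternatives run.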
